A study of Mus musculus with 2 samples.

Results

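The genes described here were 7 members of the S100 family, S100a1, S100a4, S100a6, S100a8, S100a9, S100a10 and S100a11. They were taken by name from the mRNA count matrix, which holds 25909 genes and 13 S100 family genes in all, and were followed across cell types, diets and genotypes. S100 proteins are small calcium-binding proteins that mostly act as dimers. S100A8 and S100A9 pair as calprotectin, a major protein of the neutrophil cytosol that also binds zinc and manganese and is released during inflammation. The other members act mainly inside the cell, where S100A10 and S100A11 bind annexins and S100A4 binds non-muscle myosin, and several of them are used as markers of monocytes or of tissue-infiltrating cells.

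The data were single-cell RNA-seq (scRNA-seq) of CD11b+ liver cells sorted as CD45.2+ and negative for CD90.2, B220, NK1.1 and SiglecF. They came from 4 mice, and each mouse was marked by its own hashtag. An Egr2fl/fl mouse and a Lyz2Cre/+.Egr2fl/fl mouse were fed normal diet (ND), and a mouse of each genotype was fed CDA-HFD, a high-fat diet that lacks choline, has defined amino acids and produces fatty liver disease, for 7 weeks. Both genotypes carry Egr2, a transcription factor gene, between loxP sites, and Cre made from the Lyz2 locus removes it in myeloid cells, neutrophils included, so that the genotypes differ in Cre and in Egr2 together. Each group was a single mouse without replicates, so no test was made, and all intervals given are exact 95% intervals that cover counting error only. Below, values for all 4 mice are given in the order ND Egr2fl/fl, ND Lyz2Cre/+.Egr2fl/fl, CDA-HFD Egr2fl/fl and CDA-HFD Lyz2Cre/+.Egr2fl/fl.

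The cells were 1723, 1590, 5885 and 6186 in that order, with medians of 13168 to 16459 counts per cell. All 4 mice were in 1 library, and all 16786 of its barcodes were also in the hashtag library. Egr2 itself was at 13.3, 5.85, 49.4 and 18.2 CPM (counts per 1000000 counts), lower in the Lyz2Cre/+.Egr2fl/fl mouse on each diet. Cells were given a type when enough markers of that type, and not of another, had a count. None of the 7 genes was a marker. This named 10635 cells (69.1%), left 4341 (28.2%) without a type and put 408 (2.65%) in more than 1. The leading genes of the types included markers used to name them, so their rank does not check the names. Examples were Retnlg, Cxcr2 and Mmp9 in neutrophil-like cells and Vcan, Ly6c2 and Chil3 in Ly6Chi monocyte-like cells. Others were Timd4, Clec4f and Vsig4 in Kupffer cell-like cells, and Spp1, Gpnmb and Mmp12 in hLAM-like cells (hepatic lipid-associated macrophages). Types of a mouse with fewer than 50 cells were not read, which left 29 groups of 10 types. Kupffer cell-like cells were then read only on ND, T or NK cell-like cells only in the ND Egr2fl/fl mouse, and hLAM-like, moKC-like (monocyte-derived Kupffer cells) and Ccr7+ dendritic cell (DC)-like cells only on CDA-HFD, so that these types and the diets cannot be told apart.

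The 7 genes lie on mouse chromosome 3 in 2 blocks (GRCm38.p6). S100a1, S100a4, S100a6, S100a8 and S100a9 lie within 184.688 kb from base 90511034 to base 90695721, and S100a11 and S100a10 lie within 44.15 kb from base 93520496, 2.82 Mb away. S100a1 and S100a9 are on the minus strand, and S100a4, S100a6, S100a8 and S100a11 on the plus strand. The start of S100a1 overlaps that of S100a13, and the strand setting of the counting was not stated, so reads of the 2 genes in that stretch could not be told apart. To show how neighbours with unlike cell types begin, the 180 bases before the start are given for the 5 genes that the results turn on, from RefSeq, 5′ to 3′ on the gene's strand. They are chr3:90603590-90603769 for S100a4, chr3:90612714-90612893 for S100a6, chr3:90668891-90669070 for S100a8, chr3:90695722-90695901 (minus strand) for S100a9 and chr3:93520316-93520495 for S100a11. Capitals mark matches on either strand to TATAAA (the TATA box), GGGCGG (a GC box), TGANTCA (an AP-1 site) or GAGGAAGT (a PU.1 site).
S100a4: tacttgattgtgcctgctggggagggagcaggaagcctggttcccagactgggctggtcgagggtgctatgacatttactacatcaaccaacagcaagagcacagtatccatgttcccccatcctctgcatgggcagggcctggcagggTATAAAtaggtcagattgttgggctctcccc
S100a6: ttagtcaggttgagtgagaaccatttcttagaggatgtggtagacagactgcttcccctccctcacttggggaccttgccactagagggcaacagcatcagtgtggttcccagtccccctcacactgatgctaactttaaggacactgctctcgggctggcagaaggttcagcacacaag
S100a8: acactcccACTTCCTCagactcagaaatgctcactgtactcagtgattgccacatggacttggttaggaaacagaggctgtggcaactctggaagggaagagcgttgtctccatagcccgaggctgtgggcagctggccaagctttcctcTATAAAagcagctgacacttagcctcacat
S100a9: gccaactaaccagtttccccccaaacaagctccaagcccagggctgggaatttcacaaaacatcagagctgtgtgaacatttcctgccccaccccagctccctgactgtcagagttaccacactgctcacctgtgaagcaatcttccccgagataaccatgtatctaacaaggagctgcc
S100a11: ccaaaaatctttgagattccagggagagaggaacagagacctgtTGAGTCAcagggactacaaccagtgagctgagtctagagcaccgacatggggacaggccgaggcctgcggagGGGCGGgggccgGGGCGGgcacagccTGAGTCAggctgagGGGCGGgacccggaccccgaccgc

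TATAAA was found 30 bases before the start of S100a8 and 31 bases before that of S100a4, and 12.4% of all 32851 promoters hold it in the 250 bases before the start. S100a11 held GGGCGG at 3 places and TGANTCA at 2, words that 32.7% and 6.75% of promoters hold. GAGGAAGT, present in 2.44% of promoters, was found on the reverse strand of S100a8 and in none of the other 5 genes searched. S100a10 was not searched. S100a9 held only GGGCGG, farther upstream than the stretch shown, and neither S100a1 nor S100a6 held any of the 4 words. Such matches describe letters and are not binding data.

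S100a8 and S100a9, the subunits of calprotectin, were by far the most abundant members and were concentrated in neutrophil-like cells. S100a8 was at 45400.0, 51088, 33011 and 42158 CPM in these cells and S100a9 at 66169, 71820.1, 53167 and 60454 CPM. Both were highest in the ND Lyz2Cre/+.Egr2fl/fl mouse and lowest in the CDA-HFD Egr2fl/fl mouse. Together they made up 11.2%, 12.3%, 8.62% and 10.3% of all counts of neutrophil-like cells. Although these cells held only 1.45% to 4.44% of the counts of a mouse, 80.7%, 87.0%, 83.3% and 82.2% of its S100a8 counts and 94.6%, 92.5%, 90.5% and 88.3% of its S100a9 counts as deposited came from them. S100a9 values under 22 were absent from the matrix, and if each 0 of the other cells stood for 21 counts, the S100a9 shares would be 46.4%, 63.1%, 61.8% and 58.5%.

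Outside neutrophil-like cells S100a8 stood at a low level, between 96.5 and 189 CPM over 25 groups of 9 types, with a median of 119 CPM. This includes T or NK cell-like cells (121 CPM), which should lack the gene. To compare shares of cells at equal depth, each cell was thinned to 3000 counts, and no cell was lost because the lowest total was 3115. After thinning, 98.1% to 100% of neutrophil-like cells had an S100a8 count (98.6% to 100% before), as did 34.8% of T or NK cell-like cells (57.6% before). So did 31.7% and 26.4% of Kupffer cell-like cells (88.3% and 85.6% before) and 19.8% to 31.1% of Ly6Chi monocyte-like cells (50.6% to 72.4% before). The median totals were 3808 to 4124.5 counts in neutrophil-like, 7394.5 in T or NK cell-like, 25953.5 and 23844 in Kupffer cell-like and 12753 to 13475 in Ly6Chi monocyte-like cells. The shares in Ly6Chi monocyte-like cells were 19.8%, 28.3%, 31.1% and 28.0%. The interval of the T or NK cell-like share (34.8% [23.5, 47.6], 66 cells) holds all of these but the first. Shares in Ly6Clo monocyte-like cells were 25.4% to 38.8%, with medians of 6802 to 10256 counts. The levels varied as well, since Ly6Chi monocyte-like cells had 105, 96.5, 155 and 137 CPM and Ly6Clo monocyte-like cells reached 189 CPM. Whether any of these counts came from the cells themselves or from free RNA of the pooled library was not tested, and no expression was read from them.

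Low levels of S100a9 outside neutrophil-like cells could not be seen, because the matrix holds no value of it from 1 to 21 and its lowest value above 0 is 22. The other 6 members had values down to 1. As deposited, S100a9 was at 0 to 62.2 CPM in the other named types, and at most 1.14% of the cells of a group had a value. Cells without a type were at 86.3, 335, 421 and 255 CPM, with a value in 1.82% to 3.88% of cells. Cells of more than 1 type on CDA-HFD were at 3793 and 4970 CPM, with a value in 31.5% and 33.5%. If every 0 stood for the largest value that could have been removed, the S100a9 level in Ly6Chi monocyte-like cells would be up to 1635, 1650.2, 1584 and 1526 CPM. A ratio of S100a9 is therefore given only for neutrophil-like cells and for all cells, and its absence elsewhere says nothing below 22 counts per cell. In neutrophil-like cells the same bound moved the level little, to at most 66253, 71942, 53603 and 60839 CPM. Over all cells it moved the level from 1013, 2229, 2606 and 2452 CPM to at most 2063, 3270.0, 3834 and 3712 CPM. Ratios of S100a9 over all cells that passed 2-fold are therefore given with the bound beside them.

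**Figure D1:**
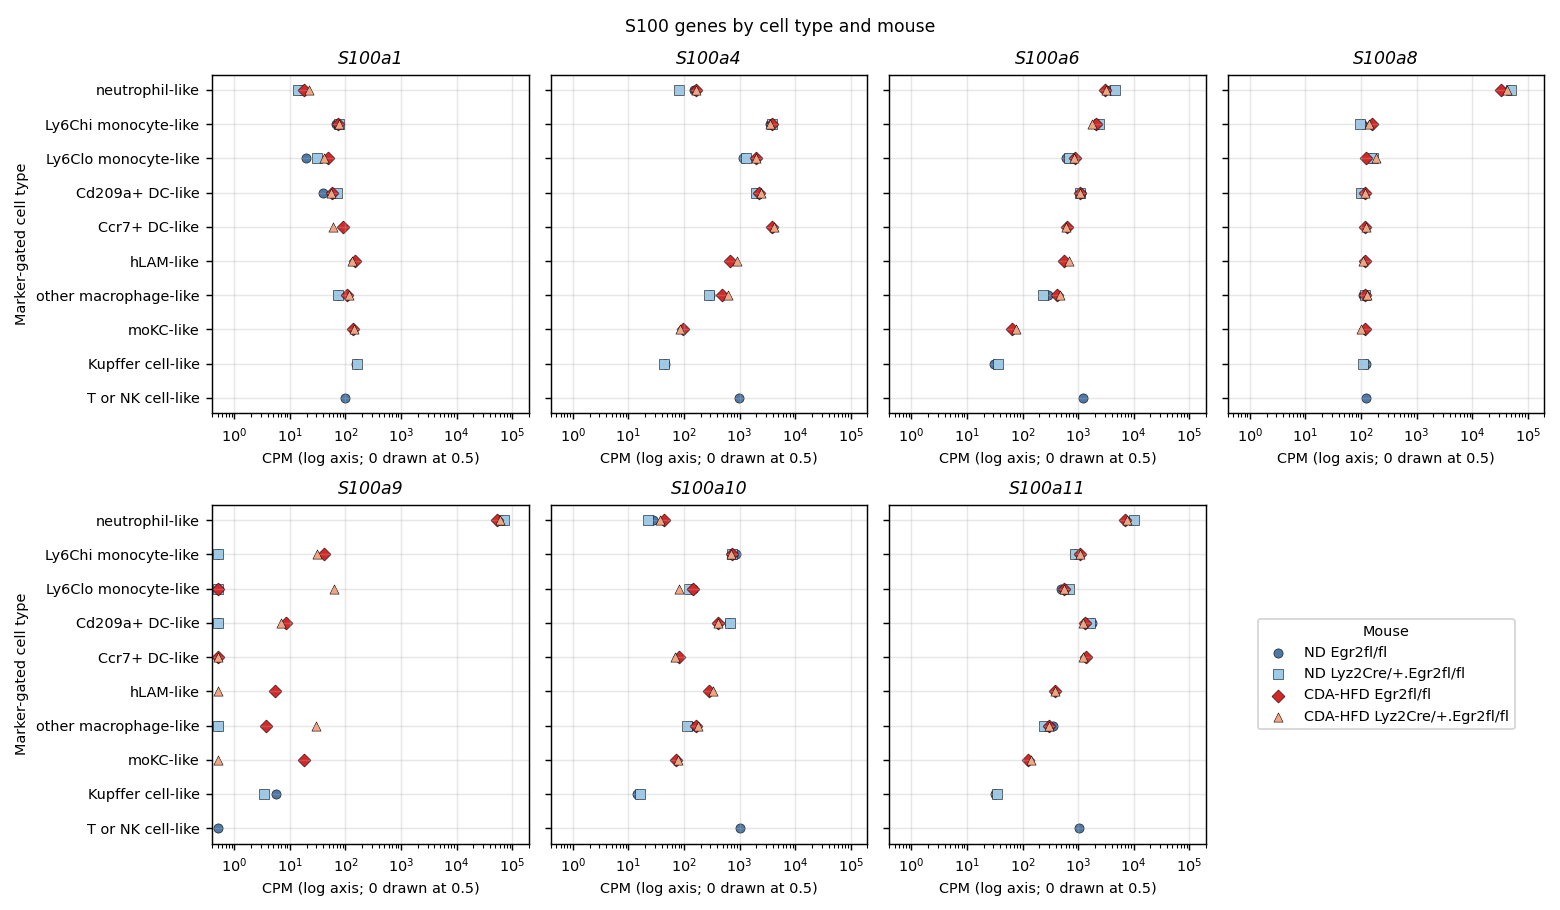
Level of each of the 7 genes (CPM, log axis, 1 panel per gene, a value of 0 drawn at 0.5) in the 10 cell types with at least 50 cells, with 1 point per mouse. S100a8 and S100a9 reach 33011 CPM or more in neutrophil-like cells alone, S100a6 and S100a11 are highest there but spread over monocyte-like and DC-like cells, and S100a4 and S100a10 are low in neutrophil-like and Kupffer cell-like cells, where S100a10 is at 14.2 to 42.8 CPM.

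Single neutrophil-like cells differed widely in how much of their RNA was S100a8 and S100a9. The median cell gave 11.6%, 11.6%, 7.30% and 7.30% of its counts to the pair, and the highest cell of each mouse 30.1%, 39.7%, 37.8% and 42.2%. Both mice on CDA-HFD had more cells at the low end, since S100a9 was listed at 0 in 2 (1.90%) and 5 (2.63%) cells on ND and in 83 (9.98%) and 63 (9.29%) cells on CDA-HFD. The ratio of S100a9 to S100a8 counts was 1.46, 1.41, 1.61 and 1.43, so the 2 subunit genes kept nearly the same balance in the 4 mice.

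**Figure D2:**
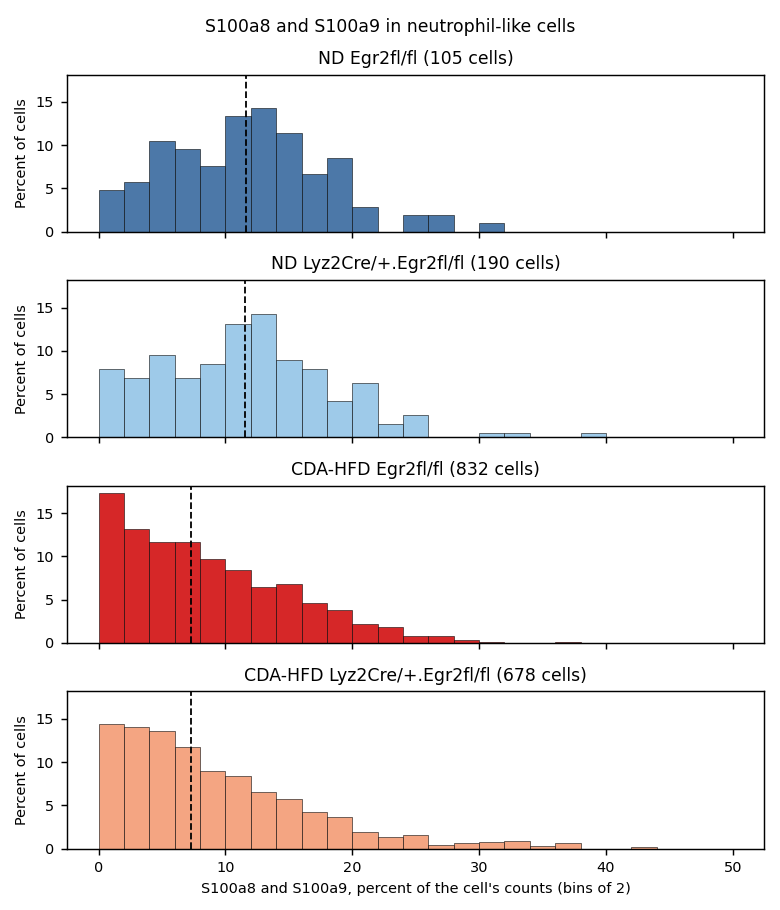
Share of a neutrophil-like cell's counts that are S100a8 or S100a9 (percent of counts, bins of 2 percentage points) for each mouse, as percent of its neutrophil-like cells, with the median as a dashed line. The medians are 11.6% in both mice on ND and 7.30% in both on CDA-HFD, and the highest cell of each mouse lies between 30.1% and 42.2%.

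The pair rose with the number of neutrophil markers found in a cell, a split chosen after the data were seen. Over all mice, S100a8 was at 23670 CPM in cells with 4 or 5 of the 10 markers, at 36325 CPM in cells with 6 and at 55942 CPM in cells with 7 or more, and S100a9 was at 32368, 54861 and 86790.3 CPM. The order was the same in each of the 4 mice. Median totals were 3895, 4041 and 4272 counts, so the cells with more markers were also slightly deeper. S100a11 followed the same order over all mice (6327, 7953 and 9019 CPM) but not in the ND Egr2fl/fl mouse (8502, 11511 and 11037 CPM), while S100a4 did not (225, 104 and 123 CPM).

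Among the neutrophil-like cells, 26 carried at least 2 of Ngp, Camp and Ltf, genes of secondary granules that are made in the bone marrow before neutrophils leave it. They were 1, 2, 5 and 18 cells of the 4 mice, and their median total was 12744 counts against 4041 in the other 1779 cells. S100a8 was at 121644 CPM and S100a9 at 178570 CPM in them, against 35238 and 53045 CPM in the others, and the pair made up 30.0% against 8.83% of their counts. S100a11 went the other way, at 4603 against 7893 CPM. Low values of Ngp and Camp were also absent from the matrix (the lowest above 0 were 99 and 76), so cells with little of these genes were not found.

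Within neutrophil-like cells the pair was lower on CDA-HFD than on ND in both genotypes, by less than 2-fold. The ratio of CDA-HFD to ND was 0.727 [0.717, 0.738] for S100a8 and 0.804 [0.794, 0.813] for S100a9 in Egr2fl/fl mice, and 0.825 [0.816, 0.834] and 0.842 [0.834, 0.850] in Lyz2Cre/+.Egr2fl/fl mice. S100a11 (0.693 [0.672, 0.715] and 0.738 [0.720, 0.757]) and S100a6 (0.805 [0.766, 0.847] and 0.706 [0.680, 0.733]) were lower as well. No member entered passed 2-fold in Egr2fl/fl mice (0 of 6, against 17.7% of all genes), and in Lyz2Cre/+.Egr2fl/fl mice 1 of 6 did, against 12.3% of all genes. That member was S100a4, which rose from 81.3 to 168 CPM (ratio 2.06 [1.59, 2.71]) but stayed far below its level in monocyte-like cells. Its ratio fell under 2 when each cell counted equally. When clusters replaced the marker rule, more members passed 2-fold in both genotypes, as given with the processing alternatives below.

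Between genotypes on CDA-HFD, S100a8 was higher in neutrophil-like cells of the Lyz2Cre/+.Egr2fl/fl mouse (1.28 [1.27, 1.29]) and so was S100a9 (1.14 [1.13, 1.14]). Of the 26 cells with granule genes 18 were in that mouse. Without them the ratio was 1.12 [1.11, 1.12] for S100a8 and 0.996 [0.990, 1.00] for S100a9, which also went to 0.982 when clusters replaced the marker rule. On ND the ratios were 1.13 [1.11, 1.14] and 1.09 [1.07, 1.10], the second 0.962 when each cell counted equally, and S100a4 was lower in the Lyz2Cre/+.Egr2fl/fl mouse (0.539 [0.379, 0.766]). No member passed 2-fold between genotypes in neutrophil-like cells, 0 of 5 entered on ND (4.03% of all genes) and 0 of 7 on CDA-HFD (1.77%).

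S100a6 and S100a11 shared the peak in neutrophil-like cells but were also well expressed in monocyte-like and DC-like cells. S100A6, or calcyclin, binds annexins and the calcyclin-binding protein, and S100A11, or calgizzarin, binds annexin A1. S100a6 was at 3764, 4572, 3030.5 and 3227 CPM in neutrophil-like cells, at 2324, 2370.3, 2116 and 1802 CPM in Ly6Chi monocyte-like cells, at 1071 to 1143 CPM in Cd209a+ DC-like cells and at 30.9 and 36.9 CPM in Kupffer cell-like cells. S100a11 was at 10153, 10307, 7036 and 7605 CPM in neutrophil-like cells, at 1758, 1653, 1309 and 1205 CPM in Cd209a+ DC-like cells, at 894 to 1102 CPM in Ly6Chi monocyte-like cells and at 32.0 and 35.0 CPM in Kupffer cell-like cells. Their order differed in the middle, since Ly6Chi monocyte-like cells came before Cd209a+ DC-like cells for S100a6 and after them for S100a11.

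Over the 29 groups of a type and a mouse, log2 levels of S100a6 and S100a11 had a Pearson's r of 0.91, and 0.91 over the 25 groups left without neutrophil-like cells. S100a4 related to S100a6 with r of 0.49 over all groups and 0.94 without neutrophil-like cells, and to S100a11 with 0.26 and 0.93. These points share 1 library, 4 mice and, within a type, a like depth, and they describe these groups only. S100a11 carried 47.9% of its counts from neutrophil-like cells in the ND Lyz2Cre/+.Egr2fl/fl mouse and 25.9% to 30.2% in the other mice.

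S100a4, also known as fibroblast-specific protein, and S100a10, the partner of annexin A2 and of the scaffold protein AHNAK, were both high in Ly6Chi monocyte-like and Cd209a+ DC-like cells and low in neutrophil-like cells. S100a4 was at 3781 and 4156 CPM in Ccr7+ DC-like cells on CDA-HFD and at 3595, 3802, 3842 and 3532 CPM in Ly6Chi monocyte-like cells, and these 2 types overlapped. Cd209a+ DC-like cells followed at 1951 to 2447 CPM, overlapping Ly6Clo monocyte-like cells at 1171 to 1976 CPM. Then came T or NK cell-like cells at 969 CPM, hLAM-like cells at 674 and 900.3 CPM and other macrophage-like cells at 285 to 615 CPM. Neutrophil-like cells were at 81.3 to 168 CPM, moKC-like cells at 94.7 and 84.9 CPM and Kupffer cell-like cells at 46.3 and 44.2 CPM. After thinning, 98.8% to 100% of Ly6Chi monocyte-like cells had an S100a4 count, against 10.4% and 8.39% of Kupffer cell-like cells. The latter had the higher median total (25953.5 and 23844 against 12753 to 13475 counts).

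S100a10 was highest in T or NK cell-like cells (999 CPM) and in Ly6Chi monocyte-like cells (873, 734, 720.2 and 689.9 CPM). Cd209a+ DC-like cells had 648 and 671 CPM on ND and 401 and 415 CPM on CDA-HFD, a ratio of 0.619 [0.586, 0.655] in Egr2fl/fl and of 0.619 [0.581, 0.659] in Lyz2Cre/+.Egr2fl/fl mice. S100a10 was at 284 and 336 CPM in hLAM-like cells, at 143, 121, 143 and 80.1 CPM in Ly6Clo monocyte-like cells and at 81.1 and 68.3 CPM in Ccr7+ DC-like cells. It was at 22.5 to 42.8 CPM in neutrophil-like cells and at 14.2 and 15.9 CPM in Kupffer cell-like cells. The Ccr7+ DC-like cells, which overlapped Ly6Chi monocyte-like cells at the top for S100a4, were thus well below them for S100a10.

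The partners of S100a10 did not share 1 pattern. Ahnak followed S100a10 over the 29 groups (r of 0.93, and 0.91 over 25 groups without neutrophil-like cells) and was its nearest gene among 11745. Anxa2 followed S100a10 less closely (0.25 and 0.70). Anxa2 was at 1158 to 1582 CPM in neutrophil-like cells, where S100a10 was at 22.5 to 42.8 CPM and Ahnak at 12.9 to 35.2 CPM. Of 8 genes of S100 binding partners, 2 were past 2-fold higher over all cells on CDA-HFD in Egr2fl/fl mice (Anxa1 and Anxa2) and 3 in Lyz2Cre/+.Egr2fl/fl mice (with Ahnak), against 15.7% and 16.3% of all genes, and none was lower. Their median log2 ratio was 0.55 and 0.50, against -0.14 and -0.15 over all genes. Within types the median went either way, at 0.26 and 0.23 in other macrophage-like cells but at -0.36 and -0.22 in neutrophil-like, -0.22 and -0.31 in Ly6Chi monocyte-like and -0.38 and -0.54 in Ly6Clo monocyte-like cells, where the medians over all genes lay between -0.08 and 0.00. Levels between genes are per count and not per length, since 3′ ends were sequenced.

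S100a1, whose protein is best known from heart and skeletal muscle, was at low levels and highest in Kupffer cell-like cells. It was at 154 and 162 CPM in Kupffer cell-like cells, at 151 and 129.5 CPM in hLAM-like cells, at 134 and 145 CPM in moKC-like cells and at 13.8 to 22.0 CPM in neutrophil-like cells. Thinned to equal depth, 32.2% and 30.9% of Kupffer cell-like cells had a count, against 1.58% to 2.86% of neutrophil-like cells. Over the 29 groups its r was -0.79 with S100a11 and -0.68 with S100a6, and -0.57 and -0.53 without neutrophil-like cells. With S100a4 and S100a10 the r was -0.02 and 0.21 over the 29 groups, and -0.58 and -0.26 without neutrophil-like cells. On ND, 77.5% and 81.1% of S100a1 counts came from Kupffer cell-like cells. On CDA-HFD these cells were nearly gone, and hLAM-like cells gave 25.6% and 12.9% of its counts, other macrophage-like cells 18.8% and 27.9%, and moKC-like cells 5.08% and 6.81%.

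The macrophage types differed in 4 of the members. In hLAM-like against moKC-like cells, S100a4 was higher 7.12-fold [6.31, 8.07] in the CDA-HFD Egr2fl/fl mouse and 10.6-fold [9.45, 11.9] in the CDA-HFD Lyz2Cre/+.Egr2fl/fl mouse, S100a6 8.65-fold [7.47, 10.1] and 9.14-fold [8.09, 10.4], S100a10 3.96-fold [3.44, 4.58] and 4.29-fold [3.79, 4.87], and S100a11 2.99-fold [2.69, 3.34] and 2.69-fold [2.45, 2.96]. S100a1 differed little (1.12 [1.00, 1.26] and 0.891 [0.801, 0.993]). In each mouse 4 of the 6 members entered were past 2-fold, against 7.71% and 7.89% of all genes. Against Ly6Chi monocyte-like cells the same 4 genes were lower in hLAM-like cells in both mice, for example S100a4 at 0.176 [0.171, 0.180] and 0.255 [0.248, 0.262], against 18.2% and 16.4% of all genes past 2-fold. S100a1 was past 2-fold higher in the CDA-HFD Egr2fl/fl mouse only (2.03 [1.84, 2.23], and 1.66 [1.504, 1.84] in the other), and not when each cell counted equally, when clusters replaced the marker rule or without the cells of highest totals.

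Kupffer cell-like cells were the lowest in 4 of the members on ND. Against Ly6Chi monocyte-like cells S100a4 was 77.7-fold and 86.0-fold lower in the 2 mice, S100a6 75.2-fold and 64.3-fold, S100a10 61.7-fold and 46.1-fold and S100a11 28.1-fold and 25.5-fold, while S100a1 was higher (2.28 [1.80, 2.93] and 2.14 [1.62, 2.88], the second under 2 when each cell counted equally). That was 5 of 6 members past 2-fold in each mouse, against 33.9% and 36% of all genes. The 4 lower genes were at 14.2 to 46.3 CPM in Kupffer cell-like cells. Outside neutrophil-like cells S100a8, from which no expression was read, was at 96.5 to 189 CPM. How far counts from other cells set the size of these ratios was not tested.

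Within Ly6Chi monocyte-like cells no member of 6 entered passed 2-fold between diets (11.6% and 14.1% of all genes did) or between genotypes (3.57% on ND and 0.869% on CDA-HFD). S100a6 was lower on CDA-HFD in both genotypes (0.910 [0.872, 0.951] and 0.760 [0.722, 0.801]) while S100a11 was higher (1.23 [1.15, 1.31] and 1.19 [1.09, 1.29]). Counts of S100a8 in these cells had ratios of 1.47 [1.21, 1.81] and 1.42 [1.10, 1.85], at levels from which no expression was read. In Cd209a+ DC-like cells no member of 6 entered passed 2-fold either (7.09% and 7.11% of all genes between diets, 2.76% on ND and 0.886% on CDA-HFD between genotypes), and S100a11 was lower on CDA-HFD in both genotypes (0.745 [0.721, 0.770] and 0.729 [0.701, 0.758]).

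Other macrophage-like cells and Ly6Clo monocyte-like cells had more S100a4 and S100a6 on CDA-HFD. In other macrophage-like cells S100a4 went from 295 to 492 CPM in Egr2fl/fl mice (1.67 [1.51, 1.84]) and from 285 to 615 CPM in Lyz2Cre/+.Egr2fl/fl mice (2.16 [1.92, 2.43]), and S100a6 from 283 to 417 CPM (1.47 [1.34, 1.63]) and from 235 to 472 CPM (2.01 [1.76, 2.30]). This put 0 of 6 and 2 of 6 members past 2-fold between diets, against 11.5% and 15.4% of all genes, and none between genotypes, where 4.46% on ND and 1.06% on CDA-HFD of all genes passed. In Ly6Clo monocyte-like cells S100a4 was at 1171, 1320.4, 1976 and 1959 CPM (1.69 [1.58, 1.80] and 1.48 [1.38, 1.60]), and 1 of 6 members was past 2-fold between diets, S100a1 in Egr2fl/fl mice (2.55 [1.57, 4.41]). In these cells 10% and 13% of all genes passed between diets, and 2.94% on ND and 1.49% on CDA-HFD between genotypes, where no member did. In hLAM-like cells S100a4 was higher in the Lyz2Cre/+.Egr2fl/fl mouse (674 and 900.3 CPM, 1.33 [1.29, 1.38]), as was S100a6 (1.24 [1.20, 1.29]), and S100a1 was lower (0.860 [0.796, 0.929]). None of the 6 entered passed 2-fold there, against 1.44% of all genes.

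**Figure D3:**
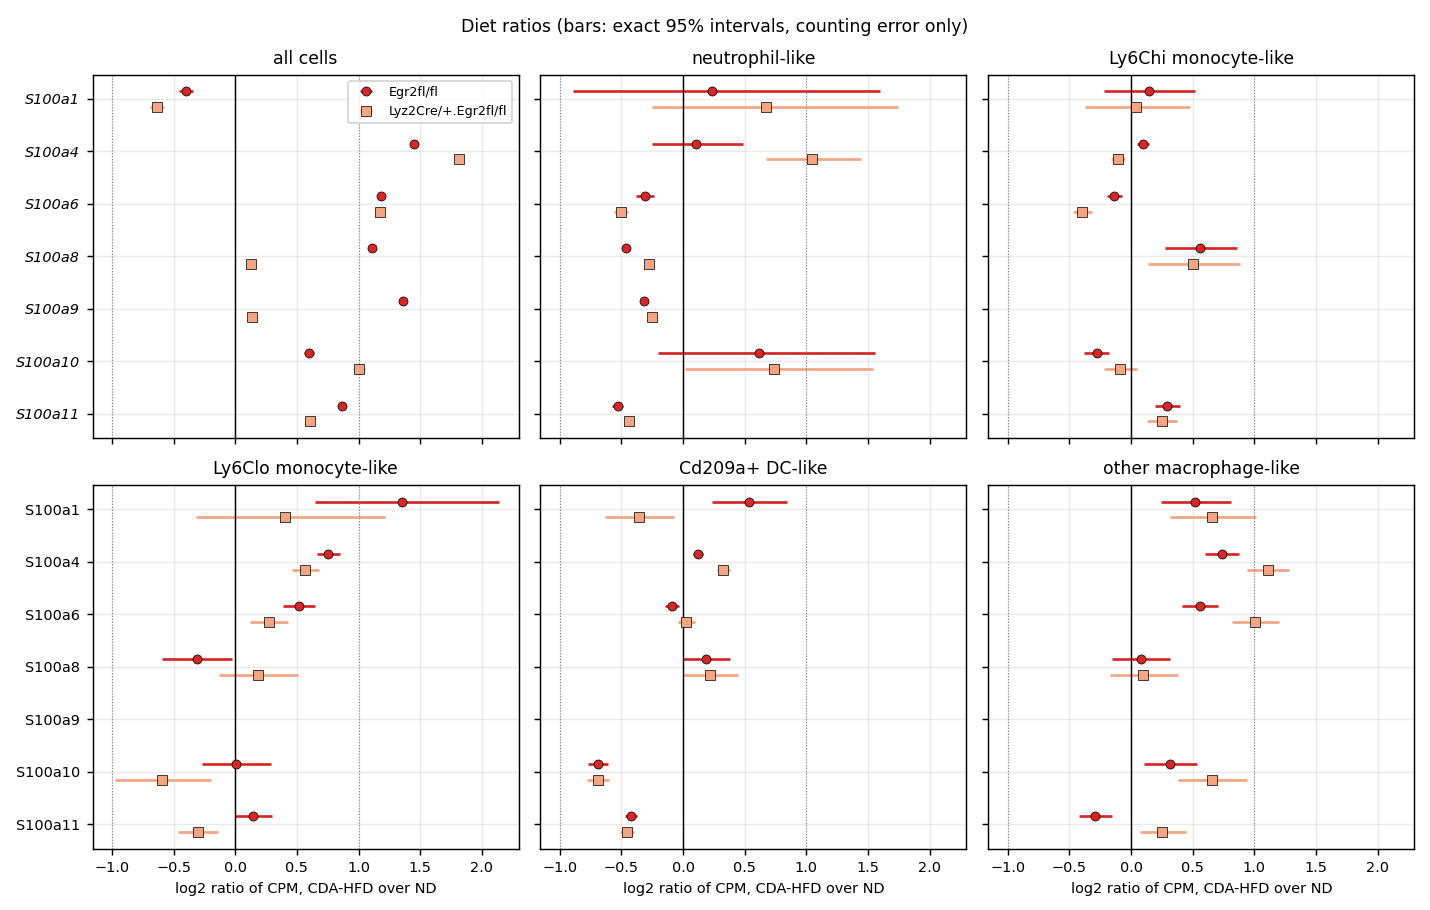
Ratio of CDA-HFD to ND (log2 scale) of each member over all cells and in 5 cell types, for Egr2fl/fl and Lyz2Cre/+.Egr2fl/fl mice, with exact 95% intervals that cover counting error only and S100a9 drawn only for all cells and neutrophil-like cells. Over all cells S100a4 lies at 1.45 and 1.81 on the log2 scale, while within Ly6Chi monocyte-like cells the ratios of S100a4, S100a6, S100a10 and S100a11 lie between -0.40 and 0.29.

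Over all sorted cells, which mix the types in other proportions on each diet, 6 of the 7 members were higher on CDA-HFD in both genotypes. S100a4 was at 586, 456, 1605 and 1602 CPM, S100a6 at 439, 422, 999 and 951.4 CPM and S100a10 at 198, 143, 298 and 287 CPM. S100a8 was at 814, 1686, 1759 and 1838 CPM and S100a9 at 1013, 2229, 2606 and 2452 CPM. For the pair the ND Egr2fl/fl mouse stood apart from the other 3, whereas for S100a4 and S100a6 the 2 diets separated.

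The diet ratios over all cells were 2.74 [2.69, 2.78] for S100a4, 2.27 [2.23, 2.32] for S100a6, 2.16 [2.13, 2.19] for S100a8 and 2.57 [2.54, 2.60] for S100a9 in Egr2fl/fl mice, 4 of 7 members past 2-fold against 15.7% of all genes. With zeros of S100a9 at 21 its ratio was 1.86, and 3 of 7 were past 2-fold. In Lyz2Cre/+.Egr2fl/fl mice they were 3.51 [3.45, 3.58] for S100a4, 2.26 [2.21, 2.30] for S100a6 and 2.01 [1.94, 2.08] for S100a10, 3 of 7 against 16.3%, while S100a8 (1.09 [1.08, 1.10]) and S100a9 (1.10 [1.09, 1.11]) were close to 1. S100a1 alone was lower, 0.757 [0.728, 0.788] and 0.644 [0.619, 0.670]. Between genotypes, S100a8 (2.07 [2.04, 2.10]) and S100a9 (2.20 [2.17, 2.23]) were higher in the Lyz2Cre/+.Egr2fl/fl mouse on ND, 2 of 7 members against 2.3% of all genes. With zeros of S100a9 at 21 its ratio was 1.59, and only S100a8 was past 2-fold. On CDA-HFD all ratios lay between 0.908 and 1.04, with 0 of 7 against 1.43%.

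How cells were weighted changed these counts. When each cell counted equally in place of each count, only S100a4 stayed past 2-fold between diets (2.17 and 2.79) and no member did between genotypes on ND (1.95 for S100a8 and 1.91 for S100a9). With equal weights the diet ratio in Lyz2Cre/+.Egr2fl/fl mice went to the other side of 1 for S100a8 (0.759), S100a9 (0.769) and S100a11 (0.980), and leaving out the 26 cells with granule genes, chosen after the data were seen, did the same for S100a8 (0.930) and S100a9 (0.9402).

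The share of neutrophil-like cells was 6.09% [5.01, 7.33], 11.9% [10.4, 13.6], 14.1% [13.3, 15.1] and 10.96% [10.2, 11.8] of cells. It was lowest in the ND Egr2fl/fl mouse, as the pair was over all cells. As a share of counts, the weighting of the CPM, it was 1.45%, 2.87%, 4.44% and 3.58%, lowest in the same mouse and higher on CDA-HFD in both genotypes. The diet change over all cells was therefore split into the part from the share of counts of each type, cells without a type included, and the part from levels within types. In Egr2fl/fl mice S100a8 rose by 945 CPM, of which type shares gave 1244 CPM and levels -299 CPM, and S100a9, as deposited, by 1593 CPM, of which shares gave 1872 CPM and levels -279 CPM. In Lyz2Cre/+.Egr2fl/fl mice the S100a8 change was 152 CPM (393 CPM from shares and -241 CPM from levels). For S100a6 shares gave 484 of 560.0 CPM and 588 of 529.6 CPM, and for S100a11 487 of 466 CPM and 462 of 320.5 CPM. In Egr2fl/fl mice the level part of both rested on types with under 50 cells in a mouse. With such types kept apart, a choice made after the data were seen, it went from 75.7 to -2.17 CPM for S100a6 and from -21.3 to -129 CPM for S100a11, while that of S100a8 (-294 CPM) and S100a9 (-278 CPM) moved little.

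S100a4 was the member whose levels within types added most to its rise. Of 1018 CPM in Egr2fl/fl mice, 568 CPM came from type shares and 450.4 CPM from levels, and of 1146 CPM in Lyz2Cre/+.Egr2fl/fl mice, 996 CPM and 150.1 CPM. Of the 450.4 CPM, 209 CPM was the level term of Kupffer cell-like cells, of which the CDA-HFD Egr2fl/fl mouse had 5. With types under 50 cells in either mouse kept apart, levels gave 191 and 146 CPM and shares 698 and 925 CPM. S100a1 changed by -28.1 and -47.1 CPM, of which shares gave -26.2 and -61.9 CPM, as Kupffer cell-like cells fell from 42.6% and 49.5% of cells to 0.0850% and 0.162%. With types under 50 cells in either mouse kept apart, Kupffer cell-like cells among them, those types gave -66.6 and -95.5 CPM of the S100a1 change and the shares of the other types 32.1 and 42.0 CPM. Cells without a type held 30.9% and 32.9% of S100a4 counts on CDA-HFD, so a part of the split rests on cells that the markers did not name.

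**Figure D4:**
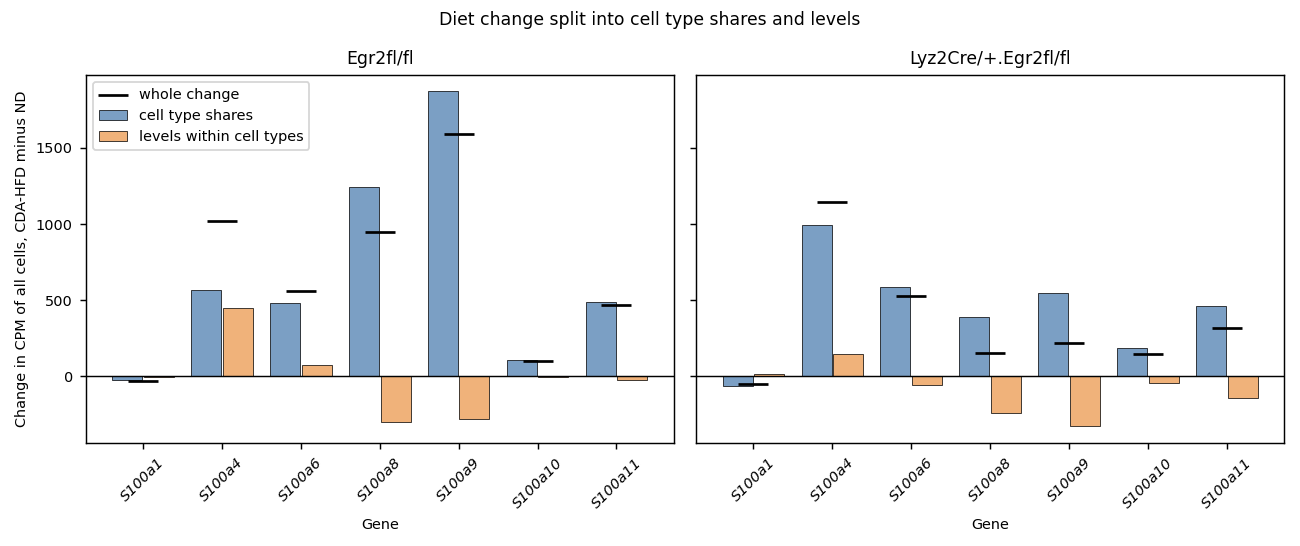
Change of each member from ND to CDA-HFD over all cells (CPM), split into the part from the share of counts of each cell type and the part from levels within cell types, for Egr2fl/fl and Lyz2Cre/+.Egr2fl/fl mice. For S100a8 and S100a9 the share part lies above 0 and the level part below 0 in both genotypes, and the level part of S100a4 is 450.4 CPM in Egr2fl/fl mice (191 CPM without types under 50 cells in a mouse) and 150.1 CPM in Lyz2Cre/+.Egr2fl/fl mice.

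The genes whose levels followed the members most closely over the 29 groups were named for 5 members among 11745 genes, 3 apiece, and depend on the same 4 mice and 1 library. No genes are named for S100a8 and S100a9, since no expression was read from S100a8 outside the 4 neutrophil-like groups and S100a9 values under 22 were absent. For S100a6 they were Sema4a, E2f2 and Gm12854 (0.92 to 0.94), for S100a10 Ahnak, Vim and Tmsb10 (0.87 to 0.93) and for S100a1 Vkorc1, Tex264 and Akr1a1 (0.89 to 0.91). S100a4 was followed by Gm42674, Tmsb10 and Gm9844 (0.91 to 1.00), and S100a11 by Gm12854, Plp2 and Cd52 (0.94 to 1.00).

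Gm42674 and Gm12854 share sequence with the member they followed, so their counts may hold reads of it. Gm42674 lies across the S100a4 gene on the same strand (chromosome 3, bases 90601904 to 90605885), and 65.4% of the 31-base words of its transcripts are also in S100a4 transcripts. Its counts were 15.2% of those of S100a4, and 8.57% to 19.7% in single groups. Gm12854 is a processed pseudogene on chromosome 4 (bases 116067268 to 116067564) with 84.6% of its words in S100a11 transcripts, and its counts were 8.96% of those of S100a11, and 5.69% to 10.3% in single groups. How many reads of S100a4 and S100a11 were counted there is uncertain. Adding these counts to the members moved none of the 212 ratios out of its interval.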

How the data were processed

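CD11b+ liver cells of 4 mice were pooled after hashtag labelling and sequenced as a 3′ library (BD Rhapsody, TAS-Seq). The authors deposited a matrix of whole-number counts per gene and barcode, made against GRCm38. R 4.2.1 and Seurat 4.1.1 are named in the submitters' processing notes. The aligner, the strand setting and the collapsing of reads into molecules are not given in the sources used here. Low values of some genes had been set to 0 before deposit. Another 7 hashtag columns, of no mouse here, were left aside.

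Of 16786 barcodes, 1392 (8.29%) named doublets by the authors were left out, as were cells above 25% mitochondrial counts, which left 15384. Counts were summed per cell type and mouse and scaled to 1000000 counts (CPM). Total counts were 32029953, 27840300, 85227192 and 90124521 in the 4 mice, and cells held 3115 to 86395. Intervals were exact (Poisson for levels, binomial for ratios, Clopper-Pearson for shares). With 1 mouse per group no test was made, and a gene was called past 2-fold. Genes entered a comparison with at least 100 summed counts, and S100a9 only for all cells and neutrophil-like cells. Scripts used Python 3.11.15, numpy 2.4.6, scipy 1.17.1, pandas 2.3.3, scanpy 1.11.5 (clusters), matplotlib 3.10.9, and edgeR 4.0.16 in R 4.3.3 for TMM factors only, and the intervals were tested on simulated data.

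Named genes were the 7 members, lists of other S100 genes, binding partners, receptors and granule genes, and the 3 genes nearest to each member (not given for S100a8 and S100a9) by Pearson's r of log2(CPM + 1) among genes at 10 CPM or more in a group. The members and lists were chosen with earlier results of these data known, and the marker rule for cell types was written with the data at hand.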

Additional observations from a re-analysis of the deposited data

Results flagged for a closer look

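Some ratios of CDA-HFD to ND lay on opposite sides of 1 in the 2 genotypes, with intervals that excluded 1. In Ly6Chi monocyte-like cells S100a4 had a ratio of 1.07 in Egr2fl/fl and 0.929 in Lyz2Cre/+.Egr2fl/fl mice. In Cd209a+ DC-like cells S100a1 had 1.45 and 0.779, the latter 1.02 when clusters replaced the marker rule. In other macrophage-like cells S100a11 had 0.818 and 1.19, the former 1.17 when each cell counted equally. With 1 mouse per group the difference was not tested.

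The 1392 barcodes that the authors named doublets entered no comparison but held counts of all members. In them S100a1 was at 89.6 CPM, S100a4 at 1223 CPM, S100a6 at 850.0 CPM, S100a8 at 2073 CPM, S100a9 at 2884 CPM, S100a10 at 249 CPM and S100a11 at 963 CPM.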

How the results depend on the processing

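Of 2397 values of ratios under the alternatives, 2005 lay within the interval of the value as reported and 392 outside. Of 444 values of the 40 ratios past 2-fold, 444 kept their direction and 427 stayed past 2-fold. Of the other ratios, 106 values fell on the other side of 1, 27 of them of 20 ratios whose interval had excluded 1. Without thinning, 162 of 231 percentages of cells with a count lay outside the 95% interval of the thinned value.

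Counts of members past 2-fold changed as follows, and the cause was not tested. When each cell counted equally, members higher on CDA-HFD over all cells went from 4 to 1 (Egr2fl/fl) and from 3 to 1 (Lyz2Cre/+.Egr2fl/fl), those higher between genotypes on ND from 2 to 0, neutrophil-like ones from 1 to 0, other macrophage-like ones from 0 to 2 in Egr2fl/fl mice, and those higher than in Ly6Chi monocyte-like cells from 1 to 0 in hLAM-like cells (Egr2fl/fl) and in Kupffer cell-like cells (Lyz2Cre/+.Egr2fl/fl). With S100a9 zeros at 21, the count over all cells was 1 between genotypes on ND and 3 between diets in Egr2fl/fl mice. In neutrophil-like cells, clusters gave 1 and 3 higher on CDA-HFD in the 2 genotypes and the stricter gate 3 in Lyz2Cre/+.Egr2fl/fl mice. Between genotypes on ND, 1 was lower with mitochondrial counts of at most 10%, the stricter gate or clusters. On CDA-HFD, 1 was higher with the stricter gate and 1 lower at a hashtag purity of at least 90%. The stricter gate gave 1 lower between genotypes on ND in other macrophage-like cells. Without cells above the 95th percentile of total counts, other macrophage-like cells had 1 higher (Lyz2Cre/+.Egr2fl/fl) and hLAM-like against Ly6Chi monocyte-like cells 0 (Egr2fl/fl), as with clusters. At 1.5-fold, 1 was lower over all cells (Lyz2Cre/+.Egr2fl/fl diet), neutrophil-like cells had 1 and 2 higher between diets and 1 lower between genotypes on ND, other macrophage-like cells 1 and 4 higher, and hLAM-like cells 1 higher (Lyz2Cre/+.Egr2fl/fl).

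Leaving out a replicate was not possible with 1 mouse per group. No paired analysis was possible because each group is 1 mouse and the labels carry no replicate numbers. With types under 50 cells in a mouse kept apart, the level part of the Egr2fl/fl diet change also went from -3.70 to -44.9 CPM for S100a10 and from -1.96 to 6.31 CPM for S100a1. The clusters held no moKC-like cluster.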

Other observations

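Receptors of extracellular S100 proteins were read from a list of 5 genes. Over all cells Cd36, a scavenger receptor, was past 2-fold higher on CDA-HFD in both genotypes (109.7, 118.7, 295.6 and 307.2 CPM), and Tlr4, the receptor of lipopolysaccharide, was past 2-fold lower (39.5, 45.4, 15.3 and 16.7 CPM), against 15.7% and 16.3% of all genes past 2-fold. Over all cells the types are mixed, and within Ly6Chi monocyte-like cells Tlr4 went the other way, at 5.78, 1.49, 13.5 and 13.8 CPM, from 6 and 1 counts on ND. Cd36 was at 7.70, 11.9, 36.7 and 60.3 CPM in these cells. In other macrophage-like cells Tlr4 and Cd36 were past 2-fold between diets in both genotypes, 1 higher and 1 lower. There 11.5% and 15.4% of all genes passed. Ager, which encodes the receptor RAGE, was at 0.468 to 1.54 CPM. None of the receptors entered passed 2-fold between genotypes over all cells, where 2.3% (ND) and 1.43% (CDA-HFD) of all genes did.

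Of 9 other S100 genes listed, 5 were in the matrix. S100a13, whose start overlaps that of S100a1, was at 128, 107, 125 and 124 CPM over all cells. S100a16 was at 5.37, 12.7, 1.56 and 3.81 CPM, lower on CDA-HFD and higher in the Lyz2Cre/+.Egr2fl/fl mouse on each diet. It was past 2-fold each time, against 15.7% and 16.3% of all genes between diets and 2.3% and 1.43% between genotypes. It had a count in only 258 of 16786 barcodes, and over all cells the types are mixed.

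Of 11 neutrophil granule genes, 8 entered over all cells, of which 7 were past 2-fold higher on CDA-HFD in Egr2fl/fl and 4 in Lyz2Cre/+.Egr2fl/fl mice, against 15.7% and 16.3% of all genes. Within neutrophil-like cells 7 entered, of which 0 and 3 were higher, against 17.7% and 12.3% of all genes, and the 3 were Ltf, Camp and Ngp, the genes that marked the 26 cells described above. Ngp values under 99 and Camp values under 76 were absent from the matrix, and these genes had a count in 31 and 28 barcodes, so their calls rest on few cells and are given as deposited, with no bound.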
